A study of Bos taurus with 16 samples.

Results

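Endometrial DNA methylation at breeding was compared between dairy cows of the rumen-protected methionine (RPM) diet that became pregnant (MET_P) and those that did not (MET_noP). The comparison uses 8 of the 16 libraries of the series, chosen by the group name above each column of the table. The MET_P libraries are S15, S19, S27 and S31, and the MET_noP libraries are S13, S17, S25 and S29. Values of single libraries are given in this order throughout.

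All animals were multiparous Holstein-Friesian cows on 1 commercial farm. Both groups received RPM daily from the second week after calving, came into heat and were inseminated 50 to 64 days after calving, and were sampled with an endometrial cytobrush 4 to 8 h after insemination. Each cow was placed in its group afterwards by an ultrasound pregnancy check. The other 8 libraries come from cows without the supplement that became pregnant (CON_P) or did not (CON_noP), and they are used here to class sites by level and to set the outcome difference of the 2 diets side by side. Pregnancy outcome was not assigned, so anything else that differed between cows that conceived and cows that did not differs between these groups as well. The study isolated DNA from more cytobrush samples than there are libraries, and how many cows a library holds is not given in the sources used here. The p-values therefore measure the spread between libraries, which may not be that between single cows.

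In mammals, DNA methylation is a mark on the cytosine of CpG dinucleotides. Dense CpG islands at gene starts are mostly free of it, while most other CpGs carry it, and methylation at a gene start goes with a silent gene. Methionine is the precursor of S-adenosylmethionine, the methyl donor of the DNA methyltransferases, and it is regenerated by the folate cycle. The endometrium is the lining of the uterus, with luminal and glandular epithelium over a stroma that also holds leukocytes, and a cytobrush takes mainly its surface.

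The measurement was reduced representation bisulfite sequencing (RRBS), which reads CpGs near the cut sites of the enzyme MspI. The deposited values are the percent of methylated calls at each of 199395 positions, of which 189036 lie on the 29 autosomes. The table counts 10346 further positions on chromosome X and 13 on the mitochondrial genome. A gene was named for 121988 (64.5%) of the autosomal sites, without saying whether a site lies in an exon, an intron or a UTR. No read counts were used, so the depth behind a percentage is unknown and no counting interval can be given. According to the study, MET_P libraries had more raw reads than MET_noP libraries but fewer bases after adapter removal, and the effect of this on the percentages was not tested. Positions without a value or with a value of zero in a library had been discarded by the authors, so fully unmethylated sites are missing and the lowest value is 1%.

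The overall level of methylation did not separate the outcomes. Over the autosomal sites, it was 65.7%, 64.6%, 64.7% and 64.9% in MET_P and 65.4%, 63.6%, 65.7% and 65.4% in MET_noP. The groups overlapped. Their means, 65.0% ± 0.496 for MET_P and 65.1% ± 0.973 for MET_noP (SD, n = 4 each), were -0.0608 percentage points apart (p = 0.943, two-sided exact permutation test). Among 16 such measures with 1 value per library, the libraries of the groups overlapped in every one, the lowest exact permutation p was 0.200 and the lowest after Benjamini-Hochberg adjustment was 0.914. The smallest p that 4 libraries against 4 can reach is 0.0286.

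The sites were then classed by their mean level in the control diet, which the comparison does not use. At 34065 sites under 20%, the class in which gene starts are usually found, MET_P averaged 12.4% ± 0.286 and MET_noP 12.3% ± 1.29 (SD, n = 4 each). At 61648 sites of 20% to under 80%, the library means were 52.5%, 49.8%, 49.5% and 51.2% in MET_P and 52.2%, 47.4%, 53.4% and 52.7% in MET_noP, which put MET_P at -0.673 percentage points from MET_noP (p = 0.686, exact permutation test). The classes of 80% to under 95% and of 95% and above, which hold 25.6% and 23.7% of the sites, differed by 0.413 and 0.184 percentage points (p = 0.229 and 0.286, exact permutation tests). Intermediate sites thus leaned towards MET_noP and highly methylated sites towards MET_P, and neither lean exceeded the spread of the libraries.

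Position along the chromosome gave the same picture. Sites with a gene averaged 68.0% in both groups, with a difference of 0.0458 percentage points, and sites without a gene 59.5% and 59.7%. Within 5 Mb of a chromosome end methylation was 70.1% in MET_P and 70.5% in MET_noP, and elsewhere 61.1% and 61.0%. The mean was higher in MET_P on 12 autosomes and lower on 17, and on 0 of the 29 did the libraries separate. On chromosome X MET_P averaged 43.8% ± 1.46 and MET_noP 41.7% ± 2.00 (SD, n = 4 each), 2.10 percentage points apart (p = 0.200, exact permutation test).

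**Figure D1:**
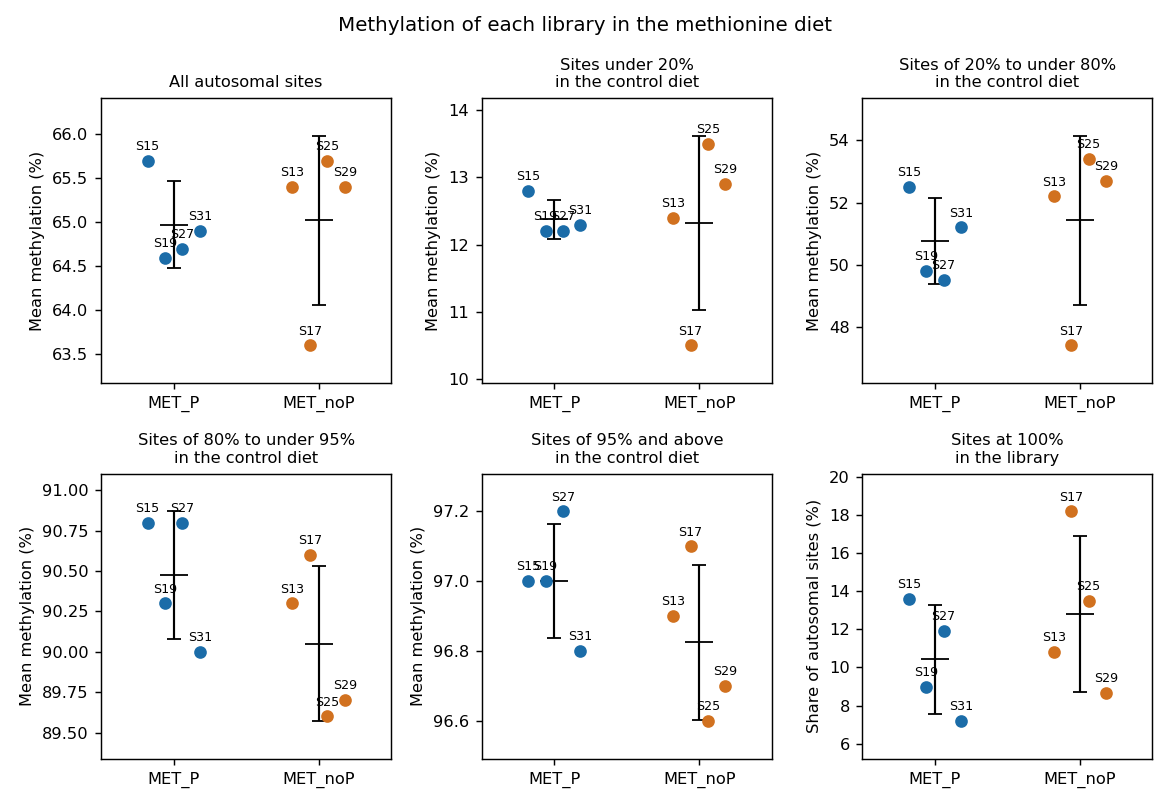
Mean methylation (%) over all autosomal sites and over 4 classes of sites set by their level in the control diet, and the share of autosomal sites (%) at exactly 100%, for each MET_P (blue) and MET_noP (orange) library. Points are libraries, bars the group mean ± SD of 4 libraries, and the axes do not start at 0. The groups overlap in every panel, and S17 lies lowest at 63.6% over all autosomal sites and highest at 18.2% for the share at 100%.

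The MET_noP library S17 stood apart from the rest of its group in its methylation levels. It had 21.8% of its sites under 20% against 16.3% to 16.7%, 18.2% of its sites at exactly 100% against 8.68% to 13.5%, and the lowest mean of the 8 libraries on all 29 autosomes. Without it, MET_P lay -0.541 percentage points from MET_noP in the mean over autosomal sites (p = 0.143, exact permutation test). Counts below are therefore also given without S17.

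Libraries did not resemble their own group more than the other one. The mean correlation of M values (log2 of the methylated over the unmethylated percent, with 1 percentage point added to each) was 0.912 within MET_P, 0.890 within MET_noP and 0.900 between the groups, over pairs from 0.862 to 0.921. The mean within groups exceeded that between groups by 0.00118 (p = 0.486, exact permutation test). By the mean correlation with the other 7 libraries, S25 of MET_noP was lowest at 0.882. S17 followed at 0.891, and the rest were at 0.897 to 0.911. At single sites the median SD between libraries was 4.45 percentage points in MET_P and 5.16 in MET_noP, and the SD was larger in MET_noP at 59.8% of the autosomal sites. In the control diet the order was turned, with 5.75 in CON_P and 5.01 in CON_noP.

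No single site, gene or region passed the threshold of an adjusted p under 0.05 in the comparison of MET_P with MET_noP (limma, Benjamini-Hochberg adjustment over the whole table). The study did report differing CpG sites for this comparison at an adjusted p under 0.05. It used logistic regression on counts, which was not run here, so the 2 results rest on different tests. Of the 189036 autosomal sites 0 (0%) passed with limma, and the lowest adjusted p over the whole table was 0.0946. Sites with an unadjusted p under 0.05 numbered 9833 (5.20%), 4844 higher in MET_P (2.56%) and 4989 lower (2.64%). In 2943 sites (1.56%) all MET_P libraries were above all MET_noP libraries, and in 2407 (1.27%) all were below. Where the libraries did not overlap, the median absolute difference was 8.54 percentage points, against 2.63 over all autosomal sites. At sites under 20% in the control diet, the libraries separated with MET_P higher in 1.87% and lower in 1.04%, and at sites of 20% to under 80% in 1.42% and 1.55%. The excess of higher sites under 20% did not hold without S17. At an unadjusted p under 0.05, 699 of them were higher and 483 lower with S17, and 769 higher and 1011 lower without it. Over all autosomal sites without S17, the count at that p was 14023 (7.42%), 6397 higher in MET_P (3.38%) and 7626 lower (4.03%).

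The sites with the lowest p were a special kind. Of the 20 leading sites, 19 had 1 group at 100% in every library, which leaves that group no spread. Over the autosomes, 1827 sites were at 100% in all MET_P libraries, 2323 in all MET_noP libraries and 271 in all 8. With 0.1 in place of 1 percentage point added before the log ratio, 278 autosomal sites passed the adjusted threshold, and 277 of these had a group at 100% throughout.

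Gene means used every site of a gene, for 8370 autosomal genes with at least 2 sites. None (0%) passed the adjusted threshold, and the lowest adjusted p was 0.609 (limma). At an unadjusted p under 0.05 there were 457 genes (5.46%), of which 294 were higher in MET_P (3.51%) and 163 lower (1.95%), so that 64.3% were higher. Libraries did not overlap in 193 genes higher in MET_P (2.31%) and 88 lower (1.05%). By the number of sites in a gene, 2.86% were higher and 0.998% lower among genes with 2 to 4 sites, 1.80% and 1.15% with 5 to 9, 2.08% and 1.37% with 10 to 19, and 2.23% and 0.682% with 20 and more. Without S17, 719 genes (8.59%) had an unadjusted p under 0.05, 351 higher in MET_P (4.19%) and 368 lower (4.40%), so the lower genes became more numerous and the share of higher genes was 48.8%. Over all autosomal genes, 55.0% were higher in MET_P, by a median of 0.241 percentage points, or 0.0898 without S17.

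Regions were runs of at least 5 sites with gaps of at most 200 bp, and 12657 of them on autosomes held 56.4% of the autosomal sites. Again 0 (0%) passed the adjusted threshold, with a lowest adjusted p of 0.682 (limma). There were 679 regions (5.36%) at an unadjusted p under 0.05, 334 higher in MET_P (2.64%) and 345 lower (2.73%). All libraries of MET_P were above those of MET_noP in 213 regions (1.68%) and below in 209 (1.65%). When S17 was left out, 1273 regions (10.1%) had an unadjusted p under 0.05, 494 higher in MET_P (3.90%) and 779 lower (6.15%). The additional regions were mostly of intermediate level. Regions of 20% to under 80% in the control diet numbered 4469, or 35.3% of all. At the same unadjusted p, 85 of these were higher and 132 lower with S17, and 158 higher and 486 lower without it.

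The genes named next are those with at least 5 sites and no overlap of libraries that had the lowest unadjusted p, 12 in each direction. They were chosen for their difference, so their values describe them and none is a called difference. Their adjusted p was 0.609 to 0.810 (limma).

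**Figure D2:**
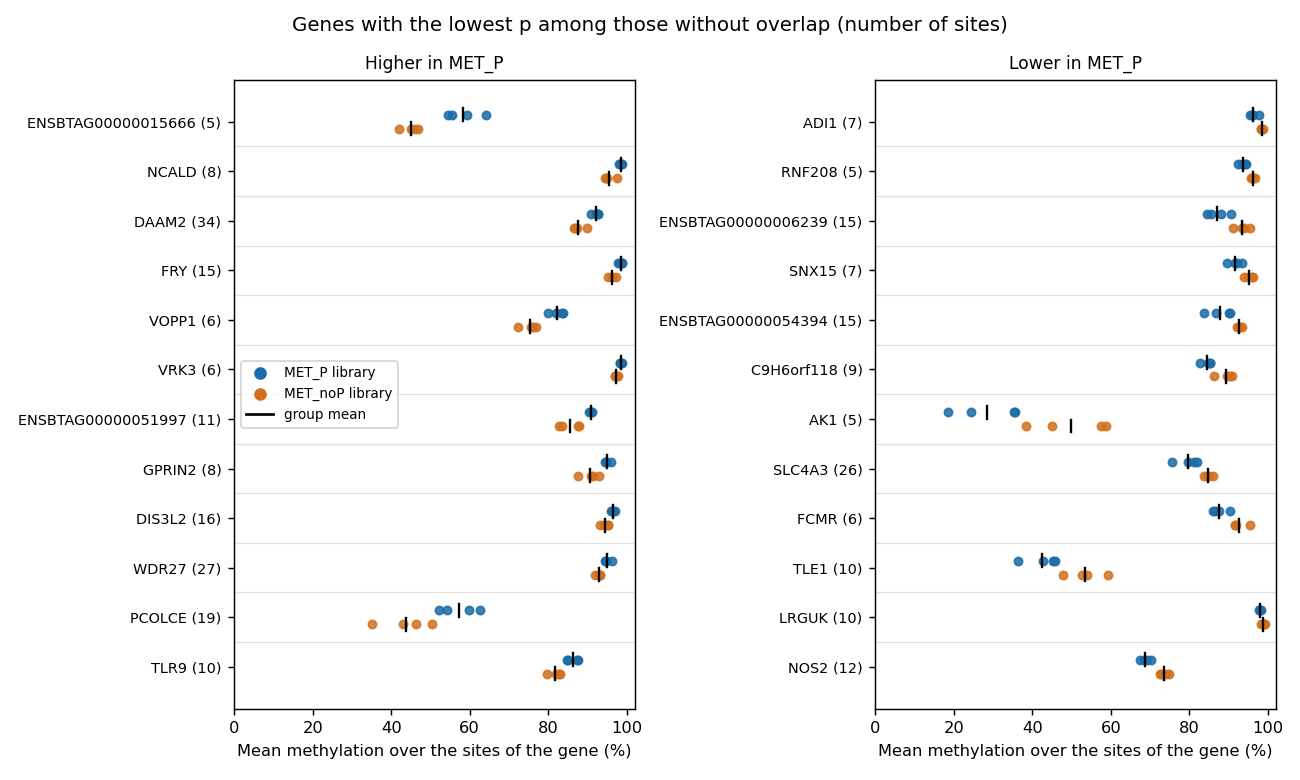
Mean methylation (%) over the sites of each of 24 genes in the 8 libraries, with the number of sites after the name, for genes higher (left) and lower (right) in MET_P. Blue points are MET_P libraries, orange points MET_noP libraries and black ticks group means. Most of these genes lie above 80% and differ by a few percentage points, while AK1, TLE1, PCOLCE and ENSBTAG00000015666 lie lower and differ by more than 10.

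The gene with the lowest p among those higher in MET_P was ENSBTAG00000015666, described in the table as multidrug resistance protein 1, a pump that exports lipophilic compounds from cells. Its 5 sites (chr4:32470310-32470369, ARS-UCD1.2) averaged 59.3%, 54.6%, 55.4% and 64.1% in MET_P and 42.0%, 46.1%, 46.9% and 45.1% in MET_noP. All 5 sites were higher in MET_P, by 7.61 to 18.9 percentage points, and the gene mean differed by 13.3. In the control diet the gene differed by 3.87 percentage points between outcomes.

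PCOLCE, which enhances the cleavage of procollagen into fibril-forming collagen, had a difference of similar size. Over 19 sites (chr25:35955961-35957802) its mean was 59.7%, 52.2%, 62.6% and 54.2% in MET_P and 50.3%, 46.3%, 35.0% and 43.1% in MET_noP. The lowest MET_P library was thus close to the highest MET_noP library, and S25 was well below the other MET_noP libraries. Of its sites 18 were higher in MET_P, 6 of them without overlap, and the group means differed by 13.5 percentage points. Cows of the control diet had a difference of -5.44 percentage points.

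DAAM2 encodes a formin that links Dishevelled, a component of Wnt signalling, to actin. Its 34 sites (chr23:13703520-13832737) averaged 92.2%, 92.7%, 92.8% and 90.9% in MET_P and 87.3%, 90%, 86.9% and 86.5% in MET_noP. Only 23 of these sites were higher in MET_P, with differences from -3.76 to 20.2 percentage points. The 4.44 percentage points of the gene mean came largely from 1 stretch of 11 sites, described with the regions below.

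VOPP1 had 6 sites (chr22:515348-692916). Its mean was 80%, 83.6%, 83.8% and 82.0% in MET_P and 75.6%, 76.1%, 77.0% and 72.3% in MET_noP, a difference of 7.11 percentage points. One site carried most of it: at chr22:692881 methylation was 88.7%, 92.8%, 94.6% and 92.2% against 73.0%, 61.1%, 62.1% and 24.3%, while the other 5 sites averaged 80.4% and 79.3%. VOPP1 is also among the genes the study chose on these libraries.

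The remaining genes higher in MET_P were highly methylated. NCALD, a neuronal calcium sensor, differed by 2.95 percentage points over 8 sites, all higher in MET_P. FRY, a microtubule binding protein, differed by 2.15, and VRK3, a kinase family member, by 1.18, both from means above 96%. DIS3L2, an exoribonuclease that degrades RNA from its 3′ end, and WDR27 differed by 1.99 and 2.16 over 16 and 27 sites. GPRIN2 and the gene ENSBTAG00000051997, which has no description in the table, differed by 4.32 and 5.36. TLR9, an innate immune receptor for DNA with unmethylated CpGs, was at 87.3%, 87.6%, 85.1% and 84.8% in MET_P and 82.0%, 79.7%, 82.8% and 82.9% in MET_noP, higher in MET_P at all 10 of its sites.

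Among genes lower in MET_P, the lowest p belonged to ADI1, acireductone dioxygenase, an enzyme of the methionine salvage pathway that recycles the sulfur-containing rest of S-adenosylmethionine to methionine. Its 7 sites (chr8:111044940-111045014) averaged 96.3%, 97.6%, 95.9% and 95.3% in MET_P and 98.8%, 98.6%, 98.3% and 98.2% in MET_noP. All libraries were almost fully methylated there, and the difference was -2.20 percentage points, with 6 of 7 sites lower in MET_P. CON_P and CON_noP differed by 0.849 percentage points in the other direction.

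AK1, an adenylate kinase that balances ATP, ADP and AMP, had the largest difference among the 24 genes. Over 5 sites (chr11:98547761-98548215) its mean was 35.4%, 18.5%, 24.3% and 35.5% in MET_P and 44.9%, 38.4%, 57.4% and 58.8% in MET_noP. The groups were 21.5 percentage points apart, MET_P at 28.4% ± 8.49 and MET_noP at 49.9% ± 9.88 (SD, n = 4 each), so the gap between the nearest libraries was small beside the spread within each group. In the control diet the outcomes lay at 38.3% and 38.8%, between the levels of the methionine diet.

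TLE1, a corepressor of the Groucho family that acts in Wnt and Notch signalling, had 10 sites (chr8:57536840-57624231). Methylation was 36.4%, 42.7%, 45.8% and 45.3% in MET_P and 52.6%, 47.7%, 53.8% and 59.3% in MET_noP. It was lower in MET_P at 9 of the 10 sites, and the gene mean by -10.8 percentage points. SLC4A3, an anion exchanger, differed by -5.30 percentage points over 26 sites, of which 12 were higher and 14 lower in MET_P. One of them differed by -38.1, and the mean over the other 25 by -3.99.

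FCMR, the receptor for the Fc part of IgM, was at 85.9%, 86.6%, 90.3% and 87.4% in MET_P and 91.7%, 91.5%, 95.5% and 91.8% in MET_noP, and all 6 of its sites were lower in MET_P. NOS2, the inducible nitric oxide synthase, was at 67.3%, 68.4%, 69.3% and 70.2% in MET_P and 72.6%, 74.0%, 74.9% and 72.8% in MET_noP. The others were RNF208, SNX15, which sorts endosomal membranes, C9H6orf118, LRGUK, ENSBTAG00000006239, described as patched domain-containing protein 3, and ENSBTAG00000054394, without a description. Their differences ranged from -6.34 to -0.875 percentage points.

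Regions show whether neighbouring CpGs differ together, which a mean over a whole gene can hide. The 8 regions with the lowest p in each direction among those without overlap had adjusted p-values of 0.682 to 0.900 (limma). Sites a few bases apart are often read on the same fragments, so the sites of a region are not independent measurements.

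**Figure D3:**
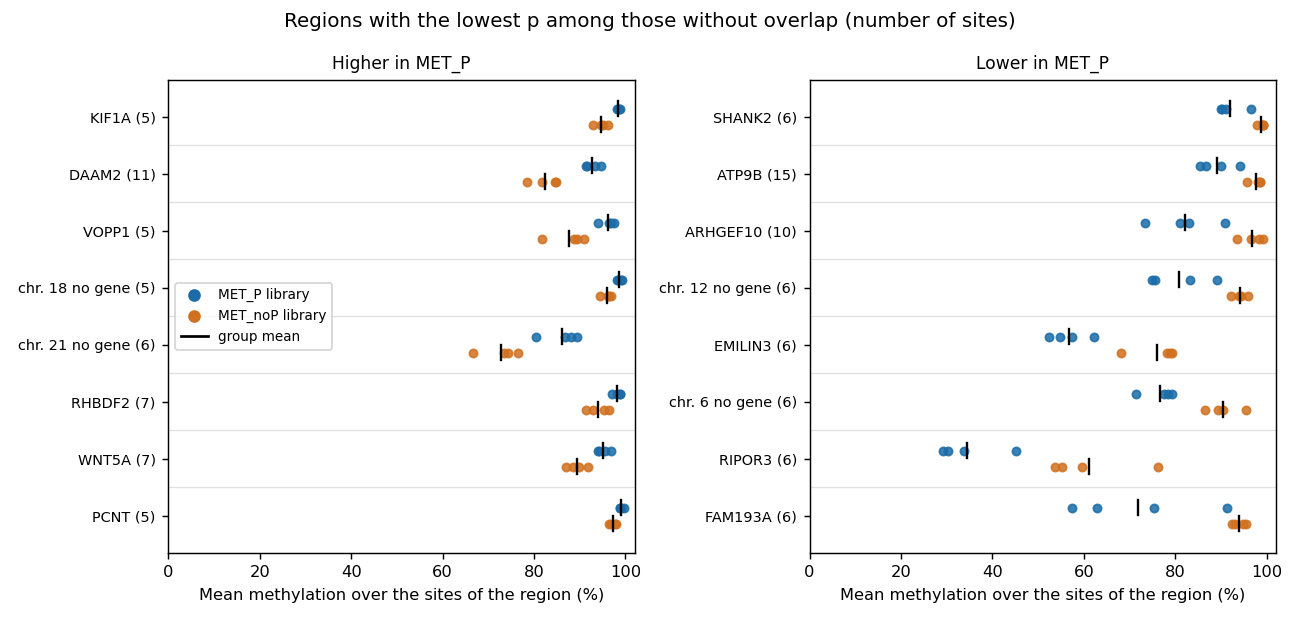
Mean methylation (%) over the sites of 16 regions in the 8 libraries, with the number of sites after the gene name or chromosome, for regions higher (left) and lower (right) in MET_P. Blue points are MET_P libraries, orange points MET_noP libraries and black ticks group means. RIPOR3 shows the widest gap between means, from 34.5% to 61.2%, and in FAM193A the MET_P libraries spread from 57.5% to 91.4% while MET_noP stays between 92.5% and 95.4%.

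In DAAM2, 11 sites within 74 bp (chr23:13832397-13832470) were at 91.5%, 93.4%, 94.6% and 91.4% in MET_P and 81.8%, 84.7%, 84.5% and 78.4% in MET_noP. All 11 were higher in MET_P, by 0.675 to 20.2 percentage points, and the region by 10.4. The other 23 sites of the gene averaged 91.8% and 90.2%. Both control diet groups were near MET_noP at this stretch, with 80.6% in CON_P and 83.1% in CON_noP.

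A region of 6 sites without a gene on chromosome 21 (chr21:67971788-67971849) was at 89.4%, 80.5%, 86.8% and 88.0% in MET_P and 76.6%, 73.5%, 66.7% and 74.4% in MET_noP. Its 13.4 percentage points were the largest gap of the 8 higher regions, and CON_P and CON_noP differed there by 0.0352. WNT5A, a Wnt ligand of the uterine stroma, held a region of 7 sites (chr22:45556951-45557018) at 95.6%, 96.8%, 94.0% and 94.2% against 91.7%, 87.1%, 89.9% and 88.6%. All 7 sites were higher in MET_P, and the gene's other 4 sites averaged 34.7% and 29%. The regions in KIF1A, a kinesin motor, RHBDF2, which governs the release of membrane-bound growth factors and cytokines, PCNT, a centrosome protein, VOPP1 and an unannotated stretch of chromosome 18 differed by 1.86 to 8.38 percentage points and had MET_P means above 96%.

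ATP9B, of the family of phospholipid-transporting ATPases, held the longest of the lower regions, 15 sites in 308 bp (chr24:938259-938566). It was at 94.2%, 85.5%, 86.8% and 90.1% in MET_P and 98.2%, 98.6%, 98.5% and 95.6% in MET_noP. These -8.60 percentage points were not spread over its length. Between 53 and 110 bp from the first site, 8 sites were each lower in MET_P, with differences of -18.4 to -11.1, whereas the last 3 sites, 286 to 307 bp from the first, differed by -0.387 to 3.15.

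ARHGEF10, a guanine nucleotide exchange factor, behaved likewise. Its 10 sites in 56 bp (chr27:1393718-1393773) were at 90.9%, 83.0%, 81.1% and 73.4% in MET_P and 98.4%, 96.6%, 99.1% and 93.4% in MET_noP. The first 6 sites were at 71.5% to 74.1% in MET_P and 92.8% to 97.0% in MET_noP, with differences of -24.9 to -20.8. At the last 4 sites both groups were above 94%, with differences of -5.23 to -0.893. The other 63 sites of the gene averaged 90.8% and 90.9%.

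**Figure D4:**
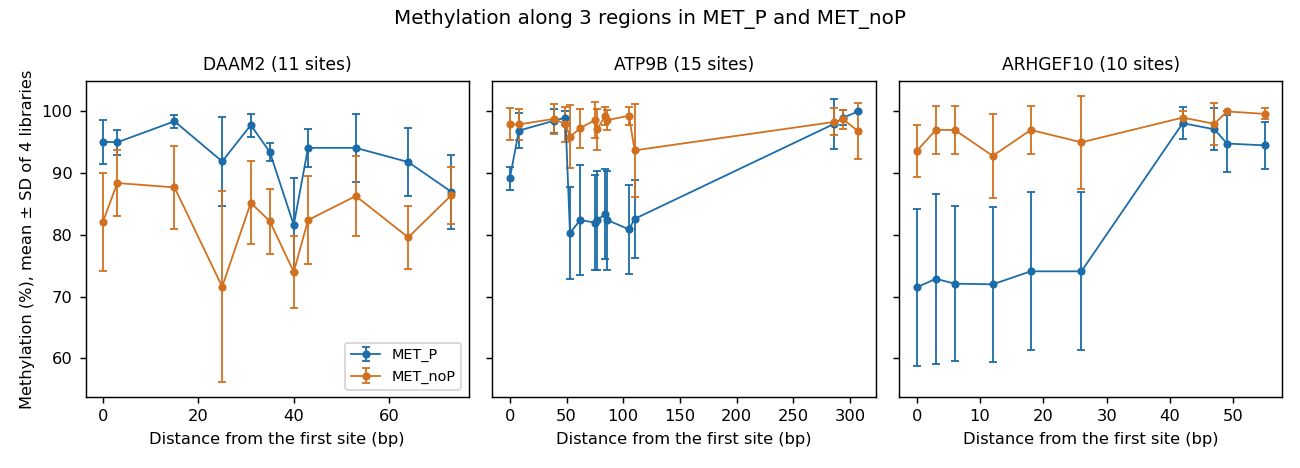
Methylation (%) at each site of the regions in DAAM2, ATP9B and ARHGEF10 against the distance (bp) from the first site, as the mean ± SD of 4 libraries in MET_P (blue) and MET_noP (orange), with lines joining neighbouring sites. MET_P is higher across DAAM2 up to the last site, and in ATP9B and ARHGEF10 it is lower over a block of 8 and of 6 neighbouring sites with differences of -24.9 to -11.1 percentage points, against -8.63 to 3.15 at the others.

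EMILIN3, an extracellular matrix glycoprotein, held 6 sites in 78 bp (chr13:69992219-69992296) at 57.4%, 54.7%, 52.4% and 62.3% in MET_P and 68.1%, 78.2%, 79.2% and 78.9% in MET_noP. Every site was lower in MET_P, with differences of -23.4 to -16.7, and the other 12 sites of the gene differed by -0.655. CON_P and CON_noP differed by 10.2 percentage points in the opposite direction. The interaction of diet and outcome had an unadjusted p of 3.18e-04 and an adjusted p of 0.532 (limma).

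RIPOR3 had the largest difference among the regions. Its 6 sites in 53 bp (chr13:78600452-78600504) were at 33.7%, 29.1%, 30.2% and 45.2% in MET_P and 53.7%, 59.7%, 76.2% and 55.3% in MET_noP, and none of the 6 overlapped between the groups. MET_P averaged 34.5% ± 7.37 and MET_noP 61.2% ± 10.3 (SD, n = 4 each), a difference of -26.7, while the gene's other 65 sites averaged 62.6% and 62.1%. The region in FAM193A differed by -22.2 percentage points, but S15 was at 91.4%, close to the MET_noP range, and only S19, S27 and S31 were far below it at 62.8%, 75.3% and 57.5%. SHANK2, a scaffold protein of synapses, and unannotated regions on chromosomes 12 and 6 differed by -6.87, -13.4 and -13.8.

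Single sites with the largest difference, 1 per gene and 6 in each direction, reached -48.0 percentage points. They did so with wide spread: at TRAF3IP1 (chr3:117655845), a gene of ciliary transport, methylation was 66.7%, 39.1%, 50.0% and 22.2% in MET_P and 100%, 70%, 100% and 100% in MET_noP. The adjusted p of the 12 sites was 0.457 to 0.890 (limma). Some of the higher sites lay among neighbours with the same lean, in EFEMP2, which encodes fibulin-4 of elastic fibres, and DTX4, a Deltex protein of Notch signalling. At EFEMP2 (chr29:43991830) the values were 90.9%, 73.1%, 90.5% and 71.1% against 53.3%, 47.1%, 36.4% and 58.3%, and the 4 neighbours in its region were higher in MET_P by 16.3 percentage points on average. For the DTX4 site (chr15:82297411), at 82.1% and 42.9%, the neighbours differed by 15.9. ATP9A was similar, with 34.0 at the site and 13.8 over 11 neighbours.

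At the remaining higher sites the neighbours differed less. SNTG2, a syntrophin, differed by 36.0 percentage points at the site (chr8:112278892) and by 0.358 at its 4 neighbours, and VOPP1 by 37.0 and 1.24. EGR3, an early growth response transcription factor, differed by 33.9 at the site and 7.24 over the 35 other sites of its region. ENO1, the glycolytic enzyme enolase 1, had 2 sites in the table. Its named site (chr16:44561862) was at 21.7%, 21.9%, 40.9% and 42.2% in MET_P and 58.8%, 84.6%, 86.7% and 59.1% in MET_noP, and the other was at 10.5% and 9.04%. ABCC6, an efflux transporter, SLC4A3 and CCDC151, a protein of the ciliary outer dynein arm, differed by -44.0, -38.1 and -37.1. The 2 neighbours of the TRAF3IP1 site differed by -36.2, the 2 of the CCDC151 site by -15.2 and those of the SLC4A3 site by -8.86.

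Gene lists that fit the tissue and the supplement were read by their counts, beside all 8370 autosomal genes. Of their members, 0 passed the adjusted threshold (limma). Of 19 measured genes of the methionine and folate cycle, 0 had an unadjusted p under 0.05 in either direction, and 12 were higher in MET_P. The median difference over the 19 was 0.577 percentage points, or 0.107 without S17. The members with the most sites were SARDH, sarcosine dehydrogenase, at 86.3% and 86.5% over 59 sites, and ALDH1L1, which oxidises formyl-tetrahydrofolate, at 90.1% and 90.3% over 31. ADI1 was not on this list.

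Of 10 genes of DNA methylation and demethylation, 0 were higher and 1 was lower in MET_P at an unadjusted p under 0.05. Of all autosomal genes, 3.51% were higher and 1.95% lower, and a list of 10 is too short to compare with these shares. It was ZBTB38, a zinc finger protein that binds methylated DNA, at 94.2%, 84.9%, 88.1% and 88.6% in MET_P and 100%, 92.0%, 95.8% and 96.9% in MET_noP over 3 sites, and S15 lay above S17. DNMT3A, the de novo methyltransferase, averaged 62.4% and 60.5% over 44 sites, and UHRF1, which guides maintenance methylation, 87.3% and 85.8% over 17. The median difference of the list was 0.306 percentage points.

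The hormone and growth factor receptors, 30 genes, and the 16 genes of prostaglandin synthesis and reception held 0 at an unadjusted p under 0.05, with medians of 0.296 and -0.410 percentage points. IGF2R, the clearance receptor for IGF2, averaged 68.0% and 65.8% over 244 sites, and RXRA, a partner of many nuclear receptors, 62.1% and 61.6% over 214. PTGIS, the synthase of prostacyclin, differed by 2.28 percentage points and TBXAS1, that of thromboxane, by 0.0788. Without S17, 5 of the 16 prostaglandin genes had an unadjusted p under 0.05, against 8.59% of all autosomal genes.

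Uterine patterning and implantation factors had 5 of 47 genes higher and 1 lower in MET_P at an unadjusted p under 0.05, against 3.51% and 1.95% of all autosomal genes. The higher ones were WNT11, WNT9B, WNT5A, LHX1 and EMX2, which pattern the embryonic reproductive tract or signal in the adult uterus, and the lower one was WNT10B. WNT11 alone had no overlap, at 90.1%, 89.6%, 88.8% and 88.0% against 87.7%, 85.1%, 86.1% and 85.9%. LHX1, at 31.9% and 23.6% over 36 sites, was higher in MET_P at 31 of them. EMX2 averaged 18.7%, 20.2%, 15.1% and 16% in MET_P and 5.79%, 9.76%, 15.1% and 8.70% in MET_noP over 2 sites. The median of the list was 0.895 percentage points, and without S17 10 of the 47 genes had an unadjusted p under 0.05 in either direction, where 8.59% of all autosomal genes did.

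The interferon response, through which the bovine conceptus later signals to the endometrium, had 0 of 18 genes higher and 2 lower at an unadjusted p under 0.05, IRF4 and ISG20, against 3.51% and 1.95% of all autosomal genes. IRF4, a transcription factor of lymphocytes, was at 35.6% and 40.8%, and ISG20, an interferon-induced exonuclease, at 41.1% and 50.0%. JAK1, the kinase of the interferon receptors, had no overlap, with 58.8%, 60.9%, 63.2% and 61.8% in MET_P and 64.1%, 67.1%, 64.0% and 64.9% in MET_noP (limma, unadjusted p = 0.0661). The list's median difference was -0.183 percentage points, and without S17 its sign turned, to 0.574.

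Of 62 genes of the extracellular matrix and adhesion, 3 were higher and 1 lower at an unadjusted p under 0.05, shares near the 3.51% and 1.95% of all autosomal genes. The higher ones were COL17A1, a transmembrane collagen, at 90% and 86.2%, ITGA4, the alpha 4 integrin, and COL15A1, at 91.7% and 84.8%. ITGA4 was at 52.5%, 50.8%, 52.3% and 51.7% in MET_P and 46.4%, 48.6%, 40.0% and 45.2% in MET_noP, higher in MET_P at all 8 sites. ITGA1, the alpha 1 integrin that binds collagen, was the lower one, at 78.0% and 81.7%, with all 6 sites lower. TIMP3, an inhibitor of matrix metalloproteinases, had no overlap and was higher at all 13 sites, by 7.54 percentage points (limma, unadjusted p = 0.0668). Without S17, 6 of the 62 genes had an unadjusted p under 0.05, and 8.59% of all autosomal genes did. With S17 kept, 1 of 21 imprinted genes was higher and 0 lower at an unadjusted p under 0.05, against 3.51% and 1.95% of all autosomal genes. It was MAGEL2, at 47.8%, 49.9%, 56.1% and 59.0% in MET_P and 44.7%, 40.3%, 44.8% and 44.8% in MET_noP. The medians of both lists, 0.282 and 0.124 percentage points, were near the 0.241 of all genes. Without S17 they were 0.141 for matrix and adhesion and -0.524 for imprinted genes, against 0.0898 for all genes.

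A cytobrush sample holds several cell types, and a shift in their mix cannot be told apart from a change of methylation within 1 of them. Marker genes were therefore read as lists. Over 18 epithelial markers the mean was 42.2%, 40.9%, 43.4% and 44.6% in MET_P and 43.4%, 38.8%, 49.9% and 46.0% in MET_noP, with 0 of 18 at an unadjusted p under 0.05. Without S17 there were 4, where 8.59% of all autosomal genes reached that level. S17 was lowest and S25 highest, both in MET_noP, and the median difference was -1.48 percentage points, or -4.07 without S17. The members with the most sites lay in opposite directions: FOXJ1, a transcription factor of ciliated cells, was at 62.3% ± 3.15 in MET_P and 58.3% ± 3.11 in MET_noP, and CLDN7, a tight junction gene, at 12.7% ± 2.08 and 18.1% ± 6.23 (SD, n = 4 each). The 15 stromal markers stayed between 36.9% and 38.3% in all 8 libraries, with 0 at an unadjusted p under 0.05. Their median difference was 0.304 percentage points, or -0.621 without S17. TBX2 and TWIST2, transcription factors of mesenchyme, were at 46.0% and 42.6% and at 58.0% and 60%. Methylation alone does not identify the tissue, and these lists give only its pattern.

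The 38 leukocyte markers averaged 61.7%, 61.3%, 60.5% and 60.1% in MET_P and 60%, 58.3%, 58.4% and 58.9% in MET_noP. Of the 38, 23 were higher in MET_P, by a median of 1.06 percentage points, or 0.274 without S17. The lowest MET_P value of the mean lay just above the highest MET_noP value, and all genes tested averaged 60.8% to 62.5%. At an unadjusted p under 0.05 there were 3 of 38 members higher in MET_P and 0 lower, against 3.51% and 1.95% of all autosomal genes, and their adjusted p was 0.810 to 0.882 (limma). CD247, the zeta chain of the receptor complex, was at 90.7%, 96.1%, 92.2% and 90.1% against 84.5%, 89.9%, 77.8% and 80%. LAT, the adaptor downstream of the receptor, was at 70.4% and 56.2%, and CD6, a T cell surface receptor, at 97.9% and 95.2%. LAT and CD6 had 3 sites each, and their libraries overlapped. The interaction of diet and outcome had an unadjusted p of 0.0172 for CD247, 0.0119 for LAT and 0.00269 for CD6, and an adjusted p of 0.877 or more (limma). These 3 were chosen for a low p in the methionine diet, which is 1 of the diets that the term compares. Their low unadjusted interaction p follows in part from that choice. The part of leukocyte content in the values of TLR9 and FCMR was not tested.

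The study's own text names 43 genes for this comparison, and 41 could be tested as gene means. They were chosen on these libraries, so their direction is no independent evidence. Of the 41, 5 were higher and 5 lower at an unadjusted p under 0.05, against 3.51% and 1.95% of all autosomal genes, and their median difference was -1.67 percentage points. Without S17, 15 of the 41 reached that level, against 8.59%. Beside VOPP1, SLC4A3 and ENO1, the members without overlap included UBE2E2, a ubiquitin-conjugating enzyme, at 82.2% and 84.4% over 140 sites, and CNIH3, an auxiliary subunit of AMPA receptors, at 41.7% and 51.3%. RAP1B, a small GTPase of cell adhesion, had the largest difference with MET_P higher, but the libraries overlapped, at 38.8%, 47.3%, 48.7% and 41.6% in MET_P and 40.1%, 14.2%, 23.4% and 21.1% in MET_noP. Only S13 was as high as the MET_P libraries there.

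Finally, the outcome difference of the methionine diet was set beside that of the control diet, which rests on other libraries. The test of the interaction of diet and outcome over all 16 libraries called 2 autosomal sites (0.00106%), 0 genes (0%) and 0 regions (0%) at an adjusted p under 0.05 (limma). The 2 sites were called with M values only, and 0 were with percentages. Both were chosen after their values were seen. At chr17:63124677, without a gene, MET_P was at 98.0%, 98.9%, 97.5% and 97.2% and MET_noP at 69.1%, 75.0%, 81.1% and 70.8%. The control diet was turned, with CON_P at 63.9% ± 15.2 and CON_noP at 94.2% ± 4.99 (SD, n = 4 each), and the interaction had an adjusted p of 0.0229 (limma). At chr27:38936982 in PSD3, an exchange factor for ARF6, MET_P was at 88.9%, 94.6%, 95.5% and 95.7% and MET_noP at 100%, 100%, 100% and 98.2%. The CON_P libraries were all at 100%, CON_noP averaged 93.0%, and the adjusted p of the interaction was 0.0150 (limma).

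**Figure D5:**
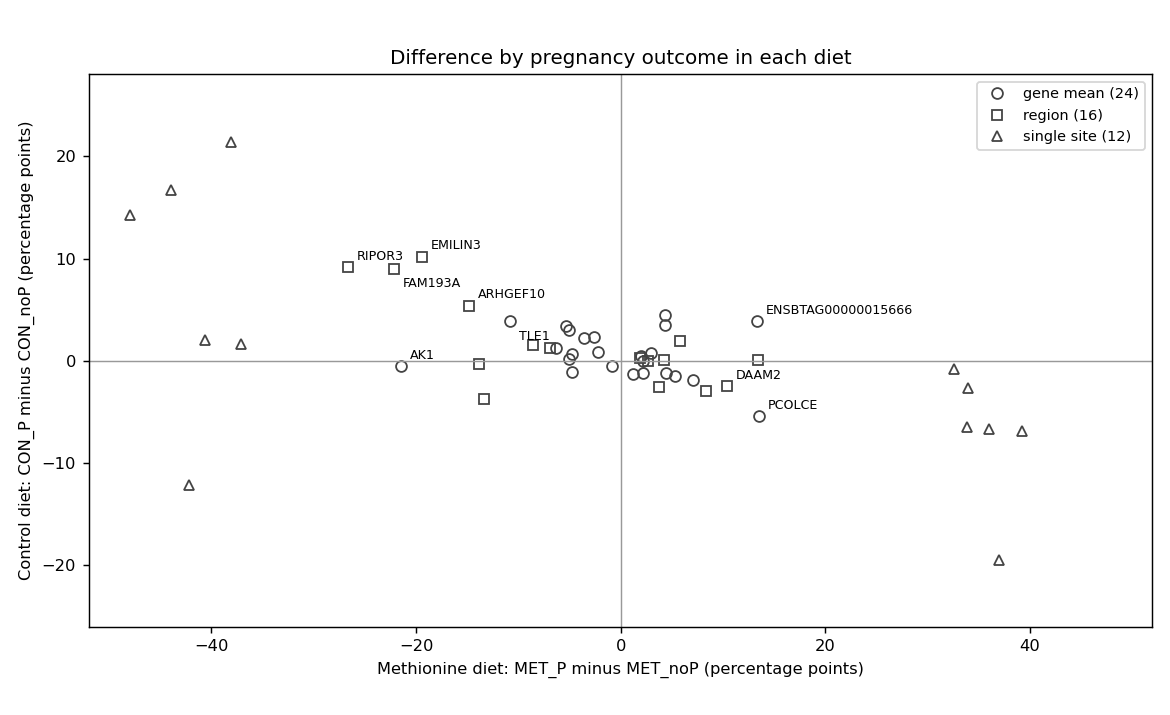
Difference in methylation by pregnancy outcome (percentage points) in the methionine diet (x axis) and in the control diet (y axis) for the named 24 gene means (circles), 16 regions (squares) and 12 single sites (triangles). The features were chosen for a large methionine diet difference, so their horizontal position follows from the choice. On the vertical axis most genes and regions lie near 0, and EMILIN3 is at 10.2, RIPOR3 at 9.17 and FAM193A at 8.99 in the opposite direction.

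Where libraries separated by outcome under RPM, the control diet differed by outcome about as much as elsewhere. At autosomal genes without overlap in the methionine diet, the median absolute control diet difference was 1.27 percentage points, against 1.35 over all autosomal genes. For regions it was 1.58 in both cases, and for sites 2.90 against 2.79. The sign in the control diet was opposite in 60.5% of such genes, 58.5% of such regions and 57.6% of such sites, where it was opposite in 55.6%, 56.9% and 53.5% of all autosomal features of the same kind. Of the 281 autosomal genes without overlap, 2 also had no overlap in the same direction in the control diet. The share of all autosomal genes without overlap in that diet is not given here, so no conclusion is drawn from this count. An unadjusted interaction p under 0.05 was found for 13 of the 24 named genes, 12 of the 16 named regions and 10 of the 12 named sites, but these were chosen for a low p or a large difference in 1 of the diets that the term compares. Over all autosomal features the share was 5.40% of genes, 5.41% of regions and 5.33% of sites.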

How the data were processed

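RRBS percentages of 16 libraries were used, 4 per group, with the 8 methionine diet libraries compared. According to the study's methods and the labels, the authors used Trim Galore for trimming, Bismark for alignment to the build ARS-UCD1.2 and SAMtools to merge the runs of a library, and then quantified positions with a minimum read count in SeqMonk. They deposited the percent methylation of each position and library, without normalization between libraries. Counts were not used here, so the study's logistic regression on counts was not run. Columns were assigned to groups by the group name above them, since they carry library numbers and not the replicate numbers of the labels.

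Percentages became M = log2((percent + 1)/(100 - percent + 1)) and were tested with limma 3.58.1 in R 4.3.3 (empirical Bayes without trend), adjusted by Benjamini-Hochberg over 199395 sites, 8719 genes (at least 2 sites) or 13263 regions, threshold 0.05. Autosomal results are reported. Gene and region fits were run on simulated data, with added shifts larger than most gene and region differences reported here. The shifts were placed at low to intermediate levels only, and site fits were not simulated. These runs therefore say nothing of small differences at high levels. Values per library and exact permutation tests came from Python 3.11.15 (pandas 2.3.3, numpy 2.4.6 and scipy 1.17.1), and figures from matplotlib 3.10.9. The interaction fit used all libraries.

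Named are genes with at least 5 sites (12 per direction), regions (8) and sites in genes with a symbol (6, by difference) among those without overlap of libraries, and in each gene list the members without overlap or otherwise the 2 with the most sites. Other list members at an unadjusted p under 0.05 and RAP1B were named after their values were seen. The values of 1 gene that these rules select are not reported here. The members and lists were chosen with earlier results of these data known. Alternatives were percentages, an offset of 0.1, moderation with trend, centred libraries, all libraries in 1 model, sets of library numbers as a term, other minimum numbers of sites, a gap of 500 bp, sites of 10% to 90%, merged strands, medians, no CpG island of chromosome 27, and each library left out. A genome of the same build was not used here, so no sequence or distance to a gene start is given.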

Additional observations from a re-analysis of the deposited data

Results flagged for a closer look

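In 13 of 136 groups of 4 libraries, 1 library lay far from the others by Dixon's criterion. Among independent groups, chance does this in about 1 of 20. Many of these groups share sites, and the named features were chosen for their difference, so the count cannot be compared with that rate. The MET_noP library S17 was the one in 7 of them. Its mean was 63.6% over autosomal sites (others 65.4% to 65.7%), 66.6% over sites with a gene (68.3% to 68.6%), 67.2% in regions (69.5% to 69.7%) and 59.7% away from chromosome ends (61.4%), and its share of sites under 20% was 21.8% (16.3% to 16.7%). S17 was also low at the SHANK2 region, at 97.8% (99.1% to 99.2%), and at the TRAF3IP1 site, at 70% (100%). In MET_noP, S25 was high at FCMR with 95.5% (91.5% to 91.8%), S29 low at the ATP9B region with 95.6% (98.2% to 98.6%) and S13 low at the EMILIN3 region with 68.1% (78.2% to 79.2%).

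In MET_P, S15 was high away from chromosome ends with 61.8% (60.8% to 61.0%) and low at the SLC4A3 site with 21.1% (46.3% to 48.6%), and S19 was high at WDR27 with 96.2% (94.5% to 94.6%). The outcome difference differed between the diets at the chromosome 17 site without a gene (limma interaction, adjusted p = 0.0229) and at the PSD3 site (adjusted p = 0.0150).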

How the results depend on the processing

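No paired analysis was possible because the columns carry no replicate numbers of the labels. With sets of consecutive library numbers as a term, 0 sites, genes and regions passed the adjusted threshold, and deviations of the 2 libraries of a set correlated by -0.0566 to 0.0414. Over the whole table, 0 sites passed, 282 with an offset of 0.1 percentage points, and 0 genes, 2 with the median over sites. The 2 interaction sites became 0 with percentages. The unadjusted p was under 0.05 at 10212 sites, 5482 with a mean of 10% to 90%, where 110548 were tested. There were 487 genes, 291 with at least 5 sites (5726 tested), and 717 regions, 191 with at least 10 sites (3263 tested). With each library left out the counts were 407 to 746 genes and 529 to 1309 regions, highest without S17. Centring the libraries turned the share of these sites higher in MET_P from 50.3% to 42.9%.

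The difference of the mean over autosomal sites was 0.691 percentage points with the median over sites and -0.541 to 0.171 with a library left out. The median turned the sign to -0.338 at sites of 95% and above, 0.576 in regions and 0.466 near chromosome ends. Leaving out a library gave -0.554 to 0.447 at sites under 20%, -0.396 to 0.246 with and -0.806 to 0.0349 without a gene, -0.747 to 0.0852 in regions, -0.272 to 0.323 away from chromosome ends and -0.0575 to 1.78 for the share under 20%. None of these passed an exact test. The cause of these shifts was not tested. The unknown depth limits every single percentage.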

Other observations

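With the median in place of the mean over the sites of a gene, MTBP, which binds the regulator of p53 MDM2, and RNF152, a ubiquitin ligase of lysosomes, passed the adjusted threshold (limma, adjusted p = 0.00962 for each). The median of the 3 MTBP sites was 96.2%, 97.1%, 95.5% and 95.3% in MET_P and 100% in each MET_noP library. That of the 7 RNF152 sites was 95.1%, 96.2%, 95.3% and 91.8% in MET_P and again 100% in each MET_noP library. MET_noP thus had no spread at either gene, as 1 group had at most of the leading single sites. As means over sites they differed by -3.16 and -2.98 percentage points, with adjusted p-values of 0.609 and 0.810.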
